A study of Mus musculus with 4 samples.

Results

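The let-7 family is a group of microRNAs (miRNAs), short RNAs that pair with target messenger RNAs and lower the protein made from them. The 9 mature members carried on the array were mmu-let-7a, mmu-let-7b, mmu-let-7c, mmu-let-7d, mmu-let-7e, mmu-let-7f, mmu-let-7g, mmu-let-7i and mmu-miR-98, a family member under another name, written from here on without the mouse prefix mmu. They were chosen by name, without their star forms (the opposite strands of the same hairpins), and made up 9 of the 567 mouse miRNAs measured. The data came from Sertoli cells, the somatic cells that nurse germ cells in the testis, purified from B6129 male mice of 5 to 7 weeks. Sham mice received a tube implant and saline, the Flut+Acy group the antiandrogen flutamide by tube and acyline, a blocker of gonadotropin-releasing hormone, at 20 mg/kg. The Flut+Acy+T group received both drugs and testosterone. Sham and Flut+Acy+T had 1 array each and Flut+Acy had 2, all on 1 slide. The labels give RNA pools of 5 to 7 mice, and the legend for the arrays speaks of 6 pooled mice for each group. The Flut+Acy arrays may therefore carry RNA of 1 pool, and no source used here says that they came from separate pools, so p-values measure only the spread between those 2 arrays, which may be technical. The comparisons ask how the miRNAs of these cells differed when androgen action was blocked and when testosterone was given back.

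A miRNA finds its targets mainly through its seed, the bases near its 5′ end, so members with a common seed have largely shared targets. Let-7 miRNAs accumulate as cells differentiate and hold back growth genes such as those of the Ras and Hmga families, while the RNA-binding proteins Lin28a and Lin28b block the processing of let-7 precursors. In the testis, let-7 miRNAs have been studied in the differentiation of spermatogonia, the germ cells that give rise to sperm.

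The mature sequences of all 9 members were found in RefSeq (table for build GRCm38.p6) and are shown because the members differ by so little. Each is given 5′ to 3′, with the seed, bases 2 to 8, in capitals.
let-7a: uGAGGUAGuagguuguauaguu
let-7b: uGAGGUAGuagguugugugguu
let-7c: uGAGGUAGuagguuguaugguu
let-7d: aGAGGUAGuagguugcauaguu
let-7e: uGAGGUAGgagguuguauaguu
let-7f: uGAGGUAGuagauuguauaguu
let-7g: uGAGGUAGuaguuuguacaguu
let-7i: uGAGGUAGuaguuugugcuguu
miR-98: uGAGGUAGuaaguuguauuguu

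All 9 shared 1 seed, and the differences lay outside it. With let-7a as the reference and positions counted from 1 at the 5′ end, let-7c differed by A19G, let-7e by U9G and let-7f by G12A. Let-7b carried A17G and A19G, let-7d U1A and U16C, and miR-98 G11A and A19U. Let-7g carried G12U and U18C. Let-7i held both of these changes and also A17G and A19U. Over the 36 pairs of members, 1 to 6 bases differed, and 4 pairs differed at 1 base. The array held no other miRNA with the same bases 2 to 8.

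The scanner files gave each member 2 probes of 10 spots, aligned to the mouse genome (build mm9). The probes matched the 3′ part of the miRNA, between 18 and 22 of its 22 bases, and the probes of 1 member differed by 1 base in length. Let-7a (chr13:48633608-48633627), let-7f (chr13:48633258-48633278) and let-7d (chr13:48631447-48631465) lay in 1 cluster on the minus strand of chromosome 13, let-7a and let-7f 350 bases apart. Let-7c (chr15:85537049-85537067) and let-7b (chr15:85537758-85537776) lay 710 bases apart on the plus strand of chromosome 15. Let-7e (chr17:17967333-17967351, plus strand) lay 168 bases from miR-99b. Let-7g (chr9:106081178-106081198, plus strand), let-7i (chr10:122422754-122422774, minus strand) and miR-98 (chrX:148347772-148347793, plus strand) lay elsewhere. In RefSeq the let-7g hairpin lies within the bounds of the gene Wdr82, that of let-7e within Spaca6 and that of miR-98 within Huwe1. Let-7a, let-7c and let-7f have 2 hairpins each that give the same mature sequence, so their signals cannot be assigned to 1 locus. Of the let-7f hairpins, Mirlet7f-2 also lies within Huwe1. The probes of let-7d began at base 4 or 5, past its difference at position 1. How far a probe of 1 member also bound its near neighbours in sequence was not tested.

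The Flut+Acy+T array stood apart. Its 672 negative-control spots had an SD of 1326 units, against 2.72 to 7.45 units on the other 3 arrays, and 535 of its spots were marked as uneven, against 0 to 4. It detected 102 of the mouse miRNAs, against 193 on the Sham array and 275 and 270 on the Flut+Acy arrays. None of the 180 member spots was marked uneven or saturated on any array. On the Flut+Acy+T array 152 of them were well above background, against all 180 on the others. The arrays also differed in overall brightness, since the summed signal was 2.41, 2.79 and 3.48 times that of Sham on Flut+Acy replicate 1, replicate 2 and Flut+Acy+T. Every member was also brighter on those 3 arrays before scaling, and the direction of many member differences turned with the way the arrays were scaled, as given beside each comparison.

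The total signal of a miRNA is the scanner software's background-subtracted sum over its probes, and its error is the software's own estimate, which does not include differences between animals. For the 8 let-7 members that error was 7.76% to 11.2% of the signal. Levels are compared here between arrays within 1 miRNA, since probes differ in brightness. All 9 members were detected on the Sham and Flut+Acy arrays, and 8 on the Flut+Acy+T array.

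**Figure D1:**
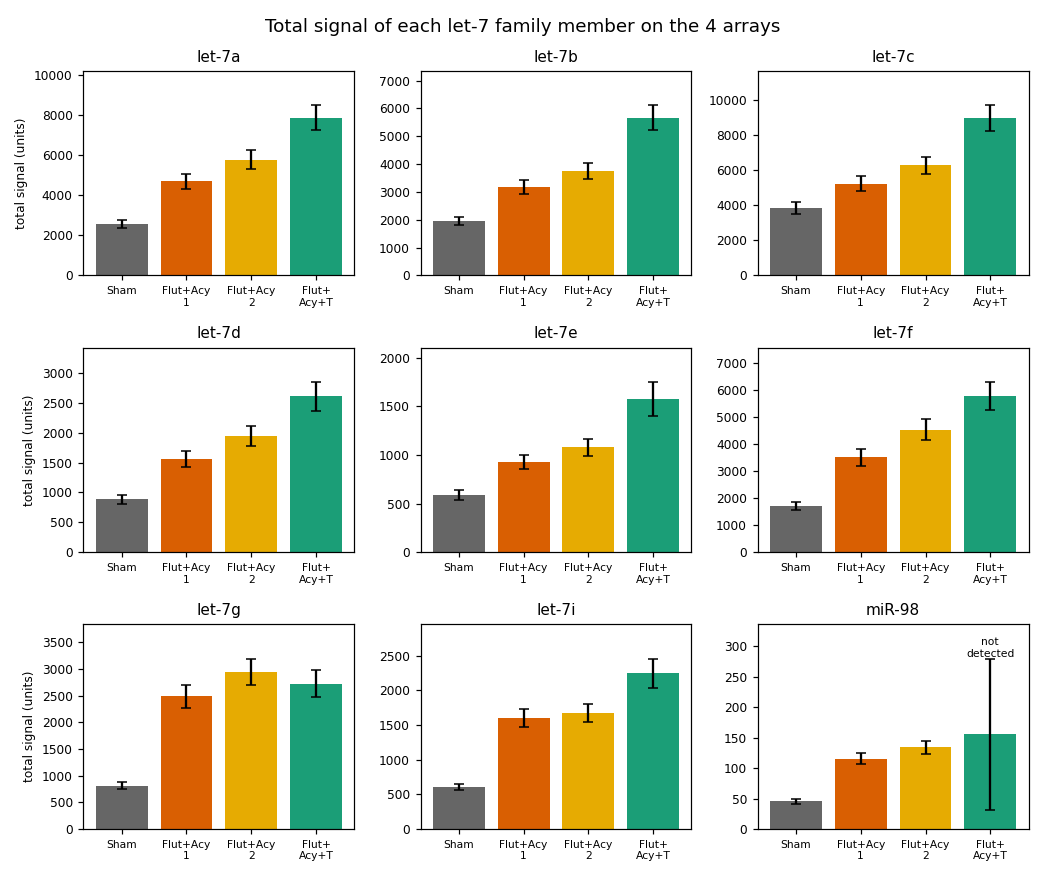
Total signal (units, linear, before scaling between arrays) of the 9 members on the Sham, 2 Flut+Acy and Flut+Acy+T arrays, each panel with its own axis from 0 and bars for the scanner software's error. In 8 panels the bars are highest in Flut+Acy+T, whereas let-7g is level between Flut+Acy and Flut+Acy+T, and miR-98 was not detected on Flut+Acy+T.

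The members whose probes were aligned to the chromosome 13 cluster gave similar profiles, though the signals of let-7a and let-7f may also come from their other hairpins. The total signal of let-7a was 2564 units in Sham, 4696 and 5789 in Flut+Acy and 7887 in Flut+Acy+T. Let-7f, which differs from it at 1 base, read 1706, 3499 and 4519, and 5774 units in the same order. Let-7d read 883, 1562 and 1944, and 2606 units. All 3 were lowest in Sham and highest in Flut+Acy+T, with replicate 2 above replicate 1. The let-7f signal was 2.05 and 2.65 times its Sham value in the Flut+Acy arrays, and that of let-7a 1.83 and 2.26 times.

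The members whose probes were aligned to chromosomes 15 and 17 had the smallest ratios of Flut+Acy to Sham before scaling. Let-7b read 1959 units in Sham, 3185 and 3756 in Flut+Acy and 5673 in Flut+Acy+T. Let-7c read 3856, 5232 and 6276, and 8995 units. Let-7e, from chromosome 17, read 589, 931 and 1079, and 1577 units. Their Flut+Acy signals were 1.36 to 1.92 times their Sham values, below the 2.41 and 2.79 times by which the whole arrays were brighter. The ratios of let-7a, let-7d and let-7f also lay below the whole-array ratio on each Flut+Acy array.

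Let-7g and let-7i, which share 2 changes from let-7a, had the largest ratios of Flut+Acy to Sham among the let-7 members before scaling, at 3.05 and 3.62 for let-7g and 2.65 and 2.76 for let-7i. Let-7g read 816 units in Sham, 2486 and 2954 in Flut+Acy and 2724 in Flut+Acy+T. Let-7i read 607, 1605 and 1673, and 2249 units. Let-7g was the one member whose Flut+Acy+T signal lay between its Flut+Acy signals, at 1.10 times replicate 1 and 0.922 times replicate 2. The miR-98 signal was 45.7 units in Sham, 115 and 134 in Flut+Acy and 156 in Flut+Acy+T, where its error of 124 units was close to the signal itself and the software did not call it detected.

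Together the members held 22.5% of the summed signal in Sham, 16.7% and 17.4% in Flut+Acy and 18.6% in Flut+Acy+T. The family's share was thus highest on the Sham array and lower on all 3 others. Since other miRNAs enter this share, it is not a measure of the family alone. In bulk RNA, fewer cells of a type and less RNA per cell cannot be told apart. The germ cell markers miR-34b-5p, miR-34b-3p, miR-34c, miR-449a and miR-449b together held 0.820% of the summed signal in Sham, 5.10% and 4.57% in Flut+Acy and 1.72% in Flut+Acy+T. Of these 5, 3 were detected in Sham and 4 on each Flut+Acy array, and miR-449b on none. From Flut+Acy to Flut+Acy+T the list was split by normalized log2 difference. MiR-34b-3p was higher (2.26), while miR-34b-5p (-1.42), miR-34c (-1.73) and miR-449a (-1.91) were lower, and miR-449a was not detected on Flut+Acy+T. The 6 muscle markers, like the let-7 family, held less in Flut+Acy, with 3.08% in Sham, 1.85% and 1.92% in Flut+Acy and 2.26% in Flut+Acy+T. Limma called all 5 that were tested lower in Flut+Acy, against 28.5% of all tested miRNAs, while miR-206 was detected on no array. The 6 blood markers held 0.408% in Sham and 0.273% and 0.268% in Flut+Acy. Of these, 3 of 5 tested were called lower, against the same 28.5%, and miR-144 was detected on no array. Their share of 0.451% in Flut+Acy+T rests on signals of which none was called detected. The pair of endothelial markers held 1.12% in Sham, 1.42% and 1.33% in Flut+Acy and 1.99% in Flut+Acy+T. The pair was split, and its share is mostly miR-126-3p, with 636 units in Sham against 13.2 for miR-126-5p. In Flut+Acy against Sham miR-126-3p differed by 0.32, not called, and miR-126-5p by -0.65, called lower by limma. MiR-126-5p was not detected on Flut+Acy+T. Of the pair of gonadal somatic markers, which Sertoli cells are expected to carry, miR-202-3p was detected on the Sham and Flut+Acy arrays and neither on Flut+Acy+T. MiR-202-5p was detected on the Flut+Acy arrays but not on Sham, and limma called it higher in Flut+Acy (2.86), while miR-202-3p (-0.37) was not called. The part of these cells in the member differences was not tested.

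For Flut+Acy against Sham, quantile normalization gave 7 of 9 members a lower value, the exceptions being let-7g and let-7i. Let-7c, let-7e, miR-98 and, by little, let-7a were lower in Flut+Acy, and no member was called higher, nor at an unadjusted limma p under 0.05 (4 members in all, the same ones). These 4 of 9 members stand against 28.5% of all 298 tested miRNAs called lower and 25.5% called higher by limma at an adjusted p under 0.05. The median log2 difference was -0.37 over the members and -0.15 over all tested miRNAs. No member differed 2-fold, a size that 22.6% of the 283 miRNAs detected in these groups reached upward and 16.6% downward.

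After quantile normalization let-7c differed by -0.56 on the log2 scale (SE 0.0069, limma adjusted p = 0.00926) and let-7a by -0.11 (SE 0.0069, limma adjusted p = 0.0300). Each of these 2 members had the same rank on both Flut+Acy arrays and so the same normalized value, which leaves an SE that comes from the other miRNAs through limma's moderation and not from their own replicates. Among all tested miRNAs, 55 had such equal values. Let-7e differed by -0.63 (SE 0.052, limma adjusted p = 0.0424). The remaining let-7 members did not pass the test, with let-7b at -0.48 (adjusted p = 0.0898), let-7d at -0.37 (0.251), let-7f at -0.14 (0.636), let-7i at 0.09 (0.636) and let-7g at 0.31 (0.0836) by limma. With the Flut+Acy+T array left out and the other 3 renormalized, 3 members were called lower (let-7c, let-7e and miR-98), and let-7a was at -0.13 (limma adjusted p = 0.0553).

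The call for miR-98 turned with the processing. Its normalized log2 difference was -0.69 (SE 0.057, limma adjusted p = 0.0424), but it turned to 0.09 under scaling to the 75th percentile of miRNAs detected on all arrays and to 0.77 with another background correction (normexp) before the quantile step (limma adjusted p = 0.0146). Under the 75th percentile over all mouse miRNAs it was -0.74 (limma adjusted p = 0.0239). The directions of let-7a, b, c, d, e and f held in 8 of 9 alternative treatments of the values, the exception being no scaling at all, where every member was higher in Flut+Acy, by 0.57 (let-7c) to 1.73 (let-7g). Let-7g was higher in 8 of 9, the exception being the 75th percentile over all mouse miRNAs, where every member was lower. The 9 treatments are not independent. A floor of 1 unit left the member values unchanged, and the spot-level values, normexp and the authors' table were quantile-normalized as well.

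**Figure D2:**
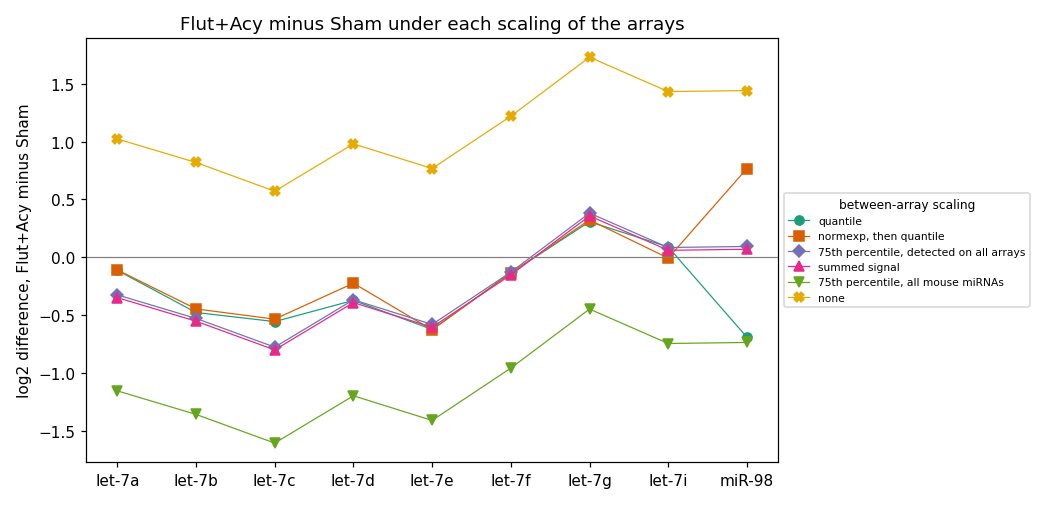
Log2 difference of each member, Flut+Acy (mean of 2 arrays) minus Sham (1 array), under 6 treatments of the arrays, 1 line for each; lines only join points of 1 treatment. The lines move up and down with the scaling, from 1.02 (no scaling) to -1.16 (75th percentile over all mouse miRNAs) for let-7a, while let-7g stays the highest let-7 member and let-7c or let-7e the lowest.

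Any single scaling factor per array cancels when a member's change is set against the changes of the other members on the same arrays. Seen this way, let-7g stood highest. From Sham to Flut+Acy replicates 1 and 2, the change in let-7g total signal lay above the median change of the other 8 members by 0.76 and 0.70 on the log2 scale. Let-7i exceeded its own such median by 0.56 and 0.31 and miR-98 by 0.48 and 0.40. Let-7c lay at -0.51 and -0.59, let-7e at -0.29 and -0.42, and let-7b at -0.25 and -0.35. Let-7a, let-7d and let-7f lay within 0.25 of it. Both Flut+Acy arrays gave every member the same side, but both were set against the same Sham array, so an error on that array enters both values.

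Before scaling, the widest gap within the family lay between let-7g and let-7c. The log2 ratio of the let-7g to the let-7c total signal changed by 1.17 and 1.15 from Sham to the Flut+Acy arrays, which differed from each other by 0.014. After quantile normalization the same change was 0.86, and let-7e and miR-98 then lay below let-7c. With testosterone the ratio moved back by -0.64 from the Flut+Acy mean and remained 0.52 above Sham. By contrast, let-7b and let-7c, aligned as neighbours on chromosome 15, changed relative to each other by 0.26 and 0.24 in Flut+Acy. Let-7a and let-7f, aligned as neighbours on chromosome 13, changed by -0.16 and -0.23. No test across all miRNAs covers these ratios, which are descriptions of 4 arrays.

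**Figure D3:**
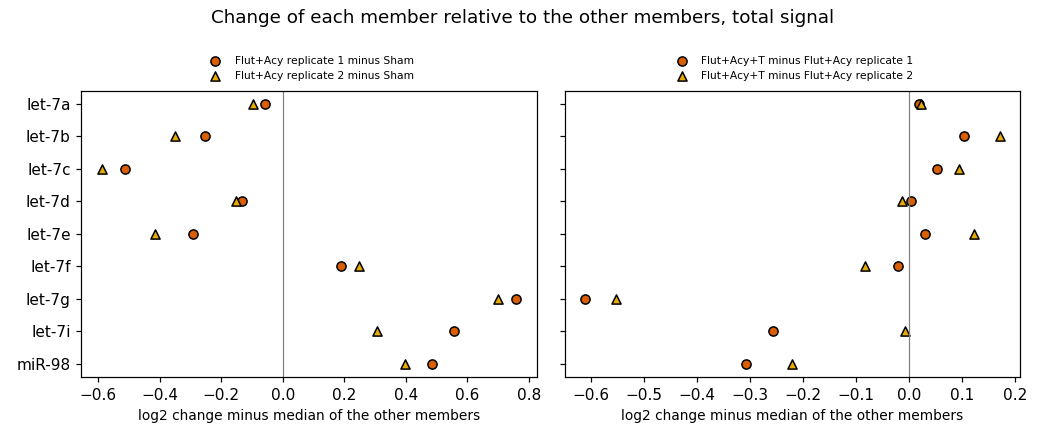
Log2 change in total signal of each member minus the median change of the other 8, Flut+Acy against Sham at left and Flut+Acy+T against Flut+Acy at right, with 1 point for each Flut+Acy array; the axes of the panels differ in range. Let-7g lies farthest right at left (0.76 and 0.70) and farthest left at right (-0.61 and -0.55).

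The separate probes gave the same order at its ends. Without scaling, the longer and the shorter let-7g probe were higher by 1.68 and 1.96 on the log2 scale in the Flut+Acy mean than in Sham. The let-7i probes were higher by 1.36 and 1.65, those of let-7f by 1.22 and 1.21 and those of miR-98 by 1.54 and 1.30. The let-7c probes were higher by 0.54 and 0.72, those of let-7b by 0.82 and 0.81 and those of let-7e by 0.72 and 0.91. Both let-7g probes thus had a larger difference than any probe of the other members. Probes of 1 member differed in this by 0.013 (let-7f) to 0.30 (let-7d), with a median of 0.19. The spots of a probe varied with a median CV of 17.7% on the Sham array and 13.3% and 4.69% on the Flut+Acy arrays.

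For Flut+Acy+T against Flut+Acy, quantile normalization put let-7a, let-7c and let-7e higher after testosterone and let-7g and miR-98 lower. By limma, 3 of 9 members were called higher, against 21.5% of the 298 tested miRNAs, and 2 lower, against 53.7%. The median log2 difference was 0.20 over the members and -1.08 over all tested miRNAs. The latter includes the many miRNAs that the Flut+Acy+T array did not detect, and over the 76 detected on all 4 arrays it was 0.13. By fitted value miR-98 alone was past 2-fold, as 50.8% of 297 miRNAs were downward, but it was not detected on the Flut+Acy+T array, and the bound given below falls short of 2-fold.

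Let-7c was higher by 0.56 (SE 0.0069, limma adjusted p = 0.00536), let-7e by 0.49 (SE 0.052, adjusted p = 0.0390) and let-7a by 0.37 (SE 0.0069, adjusted p = 0.00708). Let-7g differed by -0.46 (SE 0.052, limma adjusted p = 0.0420). It stood opposite to those 3, although without scaling its change was 0.01, while theirs were 0.60 (let-7a), 0.65 (let-7c and let-7e). Relative to the other members, let-7g lay at -0.61 and -0.55 from Flut+Acy replicates 1 and 2, the lowest of the 9. Its probes changed by 0.00036 and 0.039 without scaling, and those of let-7i by 0.37 and 0.69. Let-7b (0.41, adjusted p = 0.0881), let-7d (0.12, 0.611), let-7f (0.20, 0.473) and let-7i (0.09, 0.611) did not pass the limma test. Under the 75th percentile over all mouse miRNAs, let-7a to let-7f turned to between -0.91 and -1.09 and let-7i to -1.17. The 75th percentile of miRNAs detected on all arrays left let-7a at 0.073, let-7c at 0.13 and let-7e at 0.13 (limma adjusted p = 0.658, 0.390 and 0.287). Without scaling no member was called. The SE of let-7a and let-7c again came from the other miRNAs, since their ranks on the Flut+Acy arrays were equal.

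MiR-98 was not detected on the Flut+Acy+T array, so that level is only a bound. The lowest normalized signal of a detected miRNA on that array was 104 units. Against it, the Flut+Acy mean of 145 units was at least 1.40-fold higher and the Sham value of 235 units at least 2.27-fold higher. These bounds exist only on the quantile-normalized scale. In total signal the lowest detected miRNA on the Flut+Acy+T array read 238 units, above miR-98 on every other array, which leaves no bound. Under scaling to the summed signal, miR-98 differed by -0.10 from Flut+Acy and by -0.034 from Sham. The normalized signal of miR-98 on the Flut+Acy+T array was 60.7 units, and its limma differences were -1.26 from Flut+Acy (adjusted p = 0.0147) and -1.95 from Sham (adjusted p = 0.0139).

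For Flut+Acy+T against Sham, the let-7 members lay close to 0 after quantile normalization, though not under other scalings. By limma 1 of 9 members was called higher, let-7a, against 17.4% of the 298 tested miRNAs, and 1 lower, miR-98, against 48.3%. Let-7a differed by 0.26 (SE 0.0080, adjusted p = 0.0129). MiR-98 was also the 1 member of 9 past 2-fold, downward, as 44.5% of 218 miRNAs were. Its bound of 2.27-fold lies past 2-fold as well, but on the quantile-normalized scale only. The other let-7 members ranged from -0.25 (let-7d) to 0.18 (let-7i), and let-7c was at the same rank on both arrays. The median log2 difference was -0.07 over the members and -0.47 over all tested miRNAs. Let-7a turned to -0.25 under the 75th percentile of miRNAs detected on all arrays and to -0.18 under scaling to the summed signal. That last scaling put let-7c at -0.58 (limma adjusted p = 0.0279) and let-7e at -0.38 (limma adjusted p = 0.0372), and the 75th percentile of miRNAs detected on all arrays put let-7c at -0.65 (limma adjusted p = 0.0564). MiR-98 was at -0.034 under the summed signal and at 0.20 with normexp. With 1 array on each side, these tests borrow their spread from the Flut+Acy pair. For let-7a that pair held equal normalized values, so its SE came from the other miRNAs through limma's moderation. All 3 comparisons share arrays, so their values are not independent.

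**Figure D4:**
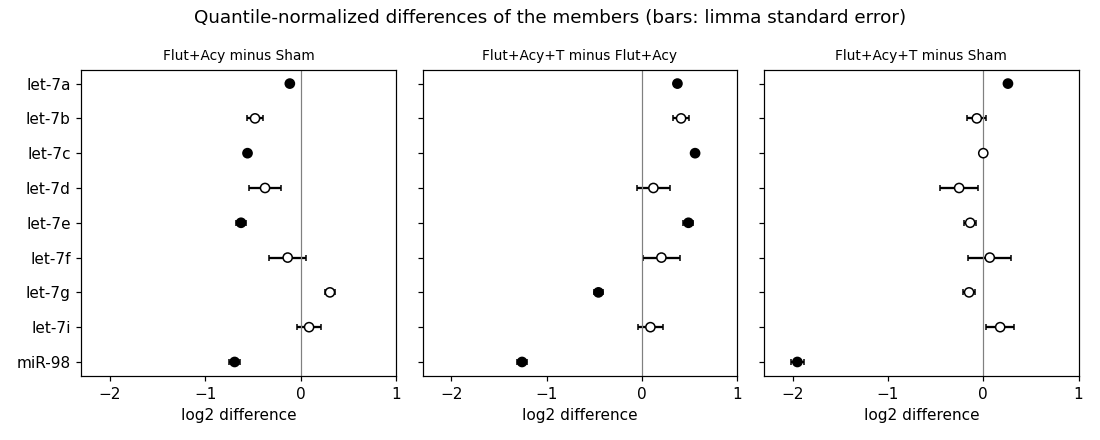
Log2 differences of the 9 members after quantile normalization in the 3 comparisons, with bars for the limma standard error; filled points have an adjusted p under 0.05 over all 298 tested miRNAs. In Flut+Acy minus Sham 4 members are filled below 0, in Flut+Acy+T minus Flut+Acy 3 above and 2 below, and in Flut+Acy+T minus Sham let-7a above and miR-98 below.

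The star forms, which come from the other arm of the let-7 hairpins and are mostly degraded, were near background on 3 arrays. Of the 7 on the array, let-7d* was detected in Sham, let-7b* and let-7f* on both Flut+Acy arrays and let-7d* on replicate 2. Their highest total signal was 6.94 units in Sham and 22.4 units in Flut+Acy. On the Flut+Acy+T array let-7d* read 1063 units, let-7c-2* 549, let-7b* 457 and let-7c-1* 343 units, and 5 star forms were detected. By limma, 6 of 6 tested star forms were higher on that array relative to Flut+Acy, against 21.5% of all tested miRNAs. Of these, let-7c-1*, let-7c-2* and let-7g* were detected on that array alone and so entered the test only through it. Let-7f* was called higher although it was not detected there, and let-7i*, detected nowhere, was not tested. The count was thus partly set by the filter. Let-7c-1*, let-7c-2* and let-7g* also lay below the floor on both Flut+Acy arrays, so their SE came from the other miRNAs. The Flut+Acy+T array is the one whose negative controls had an SD of 1326 units, and the part of that background in the star-form signals was not tested. The mature partner let-7d was at 1.34 and 1.67 times its Flut+Acy signals on that array before scaling.

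Let-7 hairpins lie beside those of miR-99, miR-100 and miR-125 at several loci, and let-7e lies beside miR-99b and miR-125a. Of the 9 miRNAs of these families on the array, 7 were tested, and limma called 4 lower and 0 higher under Flut+Acy relative to Sham, against 28.5% and 25.5% of all tested miRNAs. For Flut+Acy+T it called 2 higher and 3 lower relative to Flut+Acy (21.5% and 53.7% of all). Relative to Sham it called 1 higher, miR-99b*, and 5 lower (17.4% and 48.3% of all). MiR-99b* was also 1 of the 4 lower under Flut+Acy and 1 of the 2 higher relative to Flut+Acy. It read 2.56 units in Sham and 3.32 and 7.79 in Flut+Acy, not detected on these arrays, and 959 in Flut+Acy+T. It entered the tests only through the Flut+Acy+T array, and its call under Flut+Acy rests on undetected signals. MiR-99a read 657 units in Sham, 1075 and 1149 in Flut+Acy and 1474 in Flut+Acy+T, a normalized log2 difference of -0.84 for Flut+Acy (limma adjusted p = 0.00686). MiR-125a-5p read 86.0, 167 and 223, and 461 units, with a difference of -0.77 (limma adjusted p = 0.0298), beside -0.63 for let-7e. MiR-99b read 23.2, 58.0 and 78.6 units in Sham and Flut+Acy, a difference of -0.45 (limma adjusted p = 0.130), and was not detected on Flut+Acy+T. MiR-100 was at -0.64 (limma adjusted p = 0.00860) and miR-125b-5p at -0.32 (limma adjusted p = 0.249). MiR-99a and miR-100 each had equal normalized values on both Flut+Acy arrays, and miR-99b* lay below the floor on both. The SE of these miRNAs (0.0069) thus came from the other miRNAs and not from their own replicates, as for let-7a and let-7c.

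MiR-202-3p, a miRNA of gonadal somatic cells, and miR-196a and miR-196b, which regulate Hox genes, resemble the let-7 seed and are shown for that, with bases 2 to 8 in capitals.
miR-202-3p: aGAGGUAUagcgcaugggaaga
miR-196a: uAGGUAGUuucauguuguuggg
miR-196b: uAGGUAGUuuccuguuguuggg

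MiR-202-3p read 103 units in Sham, 312 and 339 in Flut+Acy and 8.25, not detected, in Flut+Acy+T. Its normalized difference for Flut+Acy against Sham was -0.37 (limma adjusted p = 0.0716). MiR-196a read 23.2, 41.2 and 55.2, and 577 units, and miR-196b 11.5, 8.61 and 18.1, and 855 units. Both were thus low on 3 arrays and high on the Flut+Acy+T array, as the star forms were. Between Flut+Acy and Sham, limma gave miR-196a a difference of -0.90 (adjusted p = 0.0236), while that of miR-196b, -2.11, did not pass (adjusted p = 0.151).

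Among 68 other miRNAs detected on all 4 arrays, the profiles nearest to the members' mean profile were those of miR-199b, miR-29c, miR-26b, miR-30a and miR-30b. Likeness was the root mean square difference between centred log2 normalized profiles over the 4 arrays, which was 0.050 to 0.11 for these 5 and 0.30 at the median of the 68. The total signal of miR-199b was 982 units in Sham, 1780 and 1967 in Flut+Acy and 3050 in Flut+Acy+T. MiR-29c read 411, 1087 and 1189, and 1379 units. By the same measure let-7d lay 0.078 from the mean profile, and the other 8 members lay from 0.13 (let-7f) through 0.28 (let-7g) to 0.65 (miR-98), farther than the 5 nearest other miRNAs.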

How the data were processed

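Total RNA of purified Sertoli cells was measured on 4 one-colour Agilent mouse miRNA arrays, as the deposited scanner files show. The deposited intensity values, the total signal of each miRNA with its error and detection mark, were made by the authors with Agilent Feature Extraction 9.5 (build mm9) and not scaled between arrays. The authors also deposited a table of quantile-normalized intensities, used as an alternative with a floor of 1 unit because it holds values below 0. Groups came from the sample labels; acyline and doses came from the study's methods. Quantile normalization was applied to the total signals of the 567 mouse miRNAs. On each array the lowest normalized signal of a detected miRNA was found, and the median of these over the arrays, 5.46 units, served as the floor before log2. The 298 miRNAs detected on at least 1 array were fitted with limma 3.58.1 in R 4.3.3, with 3 groups and 1 residual degree of freedom, and Benjamini-Hochberg adjustment at 0.05. The fit was tested on simulated data that held no equal values between arrays, so that test does not cover the tied miRNAs. All arrays shared 1 slide and 1 scan, and no batch term was fitted. With 1 array each for Sham and Flut+Acy+T, differences between arrays cannot be told apart from differences between those groups. The number of arrays also limits the precision. The members and lists were chosen with earlier results of these data known. The text names all members, their star forms, neighbouring miR-99, miR-100 and miR-125 miRNAs, seed-related miRNAs and the 5 nearest profiles. Alternatives covered scaling, background, floor, filter, test and left-out arrays.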

Additional observations from a re-analysis of the deposited data

How the results depend on the processing

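Calls and directions depended on the scaling of the arrays, and the cause was not tested. Each value is a log2 difference of a member, the members' median or a count of members called. With scaling to the 75th percentile of miRNAs detected on all arrays, Flut+Acy against Sham gave counts of 2 lower and reversed values of 0.093 (miR-98). Counts of 0 higher and 1 lower, a median of 0.056 and reversed values of -0.067 (let-7i) came for Flut+Acy+T against Flut+Acy. There Flut+Acy+T against Sham gave counts of 0 higher and 0 lower, a median of -0.25 and reversed values of -0.25 (let-7a), -0.12 (let-7f). Under the 75th percentile over all mouse miRNAs, Flut+Acy against Sham gave counts of 9 lower, a median of -1.16 and reversed values of -0.45 (let-7g), -0.75 (let-7i). Counts of 0 higher and 9 lower, a median of -1.05 and reversed values of -1.03 (let-7a), -0.91 (let-7b), -0.98 (let-7c), -1.05 (let-7d), -0.97 (let-7e), -1.09 (let-7f), -1.17 (let-7i) came for Flut+Acy+T against Flut+Acy. Against Sham, Flut+Acy+T gave counts of 0 higher and 9 lower, a median of -2.19 and reversed values of -2.19 (let-7a), -2.05 (let-7f), -1.92 (let-7i). When scaled to the summed signal, Flut+Acy against Sham gave counts of 1 higher and reversed values of 0.069 (miR-98). Counts of 1 higher and 1 lower and a median of 0.15 came for Flut+Acy+T against Flut+Acy. There Flut+Acy+T against Sham gave counts of 0 higher and 2 lower, a median of -0.18 and reversed values of -0.18 (let-7a), -0.043 (let-7f). Without any scaling, Flut+Acy against Sham gave counts of 6 higher and 0 lower, a median of 1.02 and reversed values of 1.02 (let-7a), 0.82 (let-7b), 0.57 (let-7c), 0.98 (let-7d), 0.77 (let-7e), 1.22 (let-7f), 1.44 (miR-98). Counts of 0 higher and 0 lower, a median of 0.58 and reversed values of 0.0077 (let-7g), 0.32 (miR-98) came for Flut+Acy+T against Flut+Acy. Against Sham, Flut+Acy+T gave counts of 9 higher and 0 lower, a median of 1.62 and reversed values of 1.53 (let-7b), 1.56 (let-7d), 1.42 (let-7e), 1.74 (let-7g), 1.77 (miR-98). From processed spot signals, Flut+Acy against Sham gave a median of -0.24. Reversed values of -0.034 (let-7d), -0.13 (let-7i) came for Flut+Acy+T against Flut+Acy. There Flut+Acy+T against Sham gave counts of 2 lower and reversed values of -0.099 (let-7i). Leaving out marked spots, Flut+Acy against Sham gave a median of -0.27. Reversed values of -0.053 (let-7i) came for Flut+Acy+T against Flut+Acy. Against Sham, Flut+Acy+T gave counts of 2 lower. After normexp at an offset of 50, Flut+Acy against Sham gave counts of 1 higher, a median of -0.14 and reversed values of -0.0075 (let-7i), 0.77 (miR-98). Reversed values of -0.056 (let-7d), -0.094 (let-7i) came for Flut+Acy+T against Flut+Acy. There Flut+Acy+T against Sham gave reversed values of -0.10 (let-7i), 0.20 (miR-98). In the authors' table, Flut+Acy against Sham gave counts of 2 lower and a median of -0.45. Counts of 1 lower and reversed values of -0.099 (let-7e), -0.52 (let-7i) came for Flut+Acy+T against Flut+Acy. Against Sham, Flut+Acy+T gave counts of 2 higher and 2 lower, a median of -0.17 and reversed values of -0.22 (let-7a), 0.096 (let-7b), 0.77 (let-7d), -0.17 (let-7f), 0.44 (let-7g), -0.49 (let-7i). Among miRNAs detected on all 4 arrays alone, Flut+Acy+T against Flut+Acy gave counts of 0 lower. Counts of 0 lower came for Flut+Acy+T against Sham. With no detection filter, Flut+Acy against Sham gave counts of 2 lower. Counts of 0 lower came for Flut+Acy+T against Flut+Acy. There Flut+Acy+T against Sham gave counts of 0 lower. Where variances were not moderated, Flut+Acy against Sham gave counts of 2 lower. Counts of 0 lower came for Flut+Acy+T against Flut+Acy. Against Sham, Flut+Acy+T gave counts of 0 lower. Without a filter, tied values left limma almost no prior spread. With no filter and without moderation alike, the 2 members called lower in Flut+Acy were let-7a and let-7c. Their equal values on the Flut+Acy arrays left them no spread of their own. No other member passed in any comparison under either setting. With the floor at 1 unit no count or direction moved, and without the Flut+Acy+T array the 4 members lower in Flut+Acy became 3. Leaving out either Flut+Acy array left no test. The members' median then ran from -0.50 to -0.27 for Flut+Acy against Sham, from 0.20 to 0.38 for Flut+Acy+T against Flut+Acy and from -0.079 to -0.056 for Flut+Acy+T against Sham. Of 384 member values under all alternatives, 51 reversed. The 384 include the alternatives of floor, filter and unmoderated test, which left the log2 differences unchanged and so could not reverse them. Of the 51, 14 came without scaling and 12 under the 75th percentile over all mouse miRNAs. No paired analysis was possible because Sham and Flut+Acy+T have 1 array each, and replicate numbers are given only within Flut+Acy. Signal over background limited miR-98, which was not detected on the Flut+Acy+T array.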

Other observations

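The authors' deposited table held let-7c at 8.15 in Sham, 4.13 and 4.87 in Flut+Acy and 162 in Flut+Acy+T, although the median over its 20 spots in the scanner files was 2726, 3636, 4482 and 6585 units on those arrays. The median over all 60 spots whose name begins with let-7c, which takes in let-7c-1* and let-7c-2*, was 2.48, 3.58, 6.58 and 490 units. Names that begin another name are carried by 112 of the miRNAs and by 6 of the 9 members (let-7b, c, d, f, g and i). Over the miRNAs detected on each array, Spearman's rho between the table and such medians over all names beginning alike was 0.995 to 1.000 (0.995 in Flut+Acy+T, 0.999 in Sham). With medians over the exact name it was 0.655 to 0.862. These are correlations across miRNAs of 1 array, which share that array. By rank, the table thus lay closer to medians that mix mature and star-form spots. The values themselves were not rebuilt (let-7b is 823 in the table for Sham, and its median over names beginning alike 331 units), so how the table was made is not settled here. Let-7a, let-7e and miR-98 have no such longer name. For let-7c the table gave a log2 difference of 5.18 for Flut+Acy+T minus Flut+Acy, against 0.56 from the total signals.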
